A study of Mus musculus with 6 samples.

Results

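RNA of 10 genes for secreted matricellular proteins was compared between differentiated C2C12 cultures labelled WT and FHL3 KO. They were chosen by name, as 5 members of the CCN family (Ccn1 to Ccn5) and 5 proteins of the same functional class (Postn, Tnc, Thbs1, Sparc and Spp1), and make up 10 of 55413 gene records. C2C12 cells are mouse myoblasts that stop dividing and fuse when serum is lowered. All 6 libraries came from day 4 in differentiation medium (2% horse serum), which replaced growth medium (10% fetal bovine serum), with 3 libraries of genotype WT and 3 of genotype KO for FHL3, a LIM-domain protein. No clone is named for the knockout, and effects of genotype and of a single clone cannot be told apart. Nothing says that replicates were separate cultures, so p-values set the group difference only against the scatter of these libraries, which may be technical. The deposited table names no unit, and its levels are read as FPKM (fragments per kilobase of exon, scaled to library size), which allow a comparison between genes.

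Matricellular proteins are secreted into the matrix but serve as signals more than as scaffold. They bind integrins, proteoglycans, collagens and growth factors, and so change how a cell adheres and how strongly it senses TGF-beta, BMP or WNT ligands. CCN proteins share an insulin-like growth factor binding domain, a von Willebrand type C domain and a thrombospondin repeat, and all but CCN5 end in a cysteine knot. In muscle the class is known from regeneration and fibrosis, where CCN2, periostin, tenascin-C and osteopontin accumulate.

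On GRCm38, as annotated by GENCODE M21, the CCN genes are Ccn1 at chr3:145646976-145649981 (minus strand), Ccn2 at chr10:24595442-24598683 (plus strand), Ccn3 at chr15:54745702-54754039 (plus strand), Ccn4 at chr15:66891320-66923201 (plus strand) and Ccn5 at chr2:163820861-163833146 (plus strand). The other genes are Postn at chr3:54361109-54391037 (plus strand), Tnc at chr4:63959785-64047015 (minus strand), Thbs1 at chr2:118111876-118127133 (plus strand), Sparc at chr11:55394500-55423183 (minus strand) and Spp1 at chr5:104435118-104441050 (plus strand).

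Fhl3 RNA itself was higher in the FHL3 KO-labelled libraries (adjusted p = 0.000547, limma). It stood at 57.2, 53.5 and 58.9 FPKM there against 27.8, 30.0 and 33.7 FPKM in WT. The RNA level thus does not bear out the label, though a gene-level value cannot show whether the gene was edited. Groups are named by label. Libraries of a group correlated at 0.977 to 0.991 in log2 level, over 12528 genes, and libraries of different groups at 0.930 to 0.959. Myotube genes were abundant in all libraries, with a summed level of 7 markers of 3982 to 4416 FPKM in WT libraries against 9381 to 9769 FPKM in the FHL3 KO-labelled libraries. WT replicate 1 carried liver transcripts, with 3 hepatocyte markers summing to 69.1 FPKM there. It is also the WT library in which long genes stood highest, with a slope of 0.080 log2 units per doubling of exon length against 0.025 and -0.023. In the group labelled FHL3 KO, replicate 2 had a slope of 0.040 and the others -0.062 and -0.060.

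The 10 genes split. Of the 10, 4 rose (Spp1, Ccn2, Ccn1 and Thbs1), 4 fell (Ccn3, Postn, Ccn5 and Sparc) and 2 (Ccn4 and Tnc) did not pass, against 40.8% of all 12528 genes called by limma at an adjusted p of 0.05, with 19.7% higher and 21.2% lower. Rises made up 48.2% of all calls, or 36.3% with every library scaled to the same sum. All 10 passed the filter for testing, a group mean of 1 FPKM or more, Ccn5 through the WT group alone. The median size of the change, on the log2(FPKM + 1) scale, was 0.72 for the 10 genes and 0.31 for all tested genes. For 9 of the 10 the groups were apart, a pattern found in 53.8% of all tested genes, and for each of the 9 p was 0.1 by exact permutation (two-sided), the lowest value possible with 3 against 3.

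**Figure D1:**
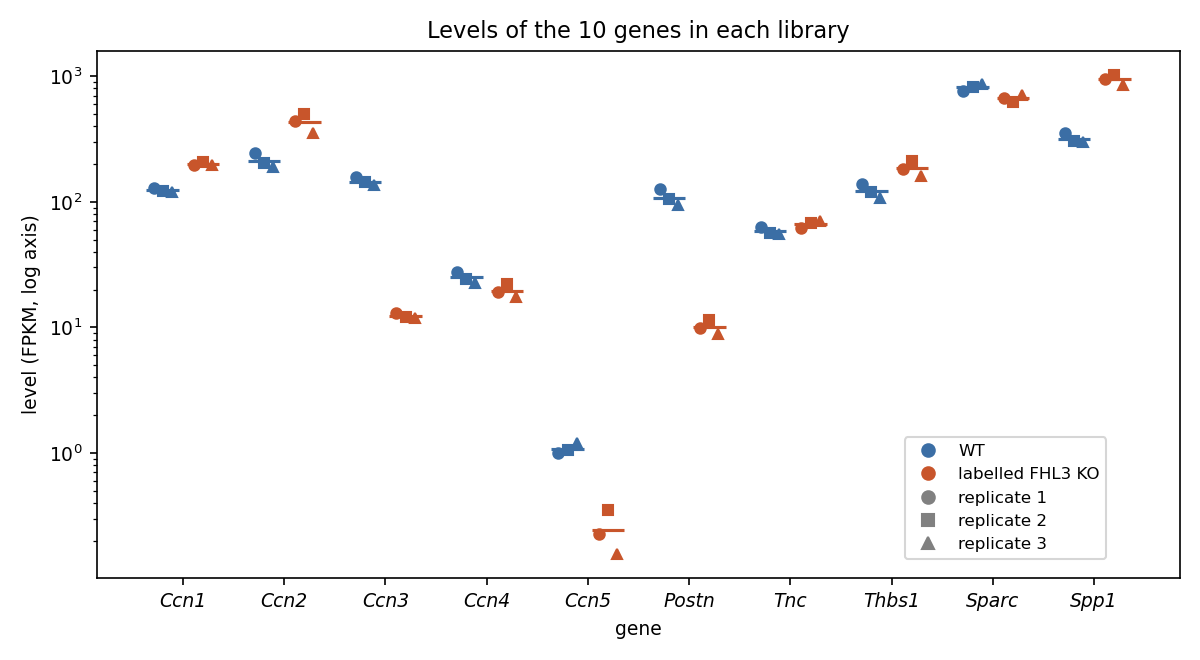
Level of each gene in FPKM on a log axis, with 1 point per library (circle, square and triangle for replicates 1, 2 and 3) and a line at the group mean. Ccn3 and Postn lie about a decade lower in the FHL3 KO-labelled libraries, and Spp1 overtakes Sparc as the most abundant of the 10.

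Promoter sequence is shown for 3 genes that moved most among those with an entry in the RefSeq promoter table (GRCm38.p6), which held 5 of the 10 (Ccn1, Postn, Tnc, Sparc and Spp1). Each is the 250 bases before the transcription start, read 5′ to 3′ on the gene's strand, with capitals for matches on either strand to motifs of factors that act on this class. Marked were the TEAD motif GGAATG, the SMAD motif CAGAC, the AP-1 motif TGANTCA, the YY1 motif CCATNTT and the CArG box of SRF. A looser motif, GNGGGNG of the EGR factors, was searched first and dropped after its matches were seen, because 60.3% of promoter windows hold it; it matched in Ccn1, Postn and Tnc and not in Sparc or Spp1. Ccn1 is at chr3:145649986-145650235 on the minus strand, Spp1 at chr5:104434861-104435110 on the plus strand and Postn at chr3:54360857-54361106 on the plus strand.
Ccn1: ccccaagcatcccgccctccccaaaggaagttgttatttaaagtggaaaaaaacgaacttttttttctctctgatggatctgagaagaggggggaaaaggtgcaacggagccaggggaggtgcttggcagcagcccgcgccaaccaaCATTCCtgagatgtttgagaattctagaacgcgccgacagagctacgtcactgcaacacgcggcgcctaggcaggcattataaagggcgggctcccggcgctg
Spp1: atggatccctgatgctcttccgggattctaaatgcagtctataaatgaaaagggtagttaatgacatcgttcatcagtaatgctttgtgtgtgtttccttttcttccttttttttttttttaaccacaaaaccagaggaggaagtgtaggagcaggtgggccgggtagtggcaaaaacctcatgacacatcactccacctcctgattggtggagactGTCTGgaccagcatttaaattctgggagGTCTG
Postn: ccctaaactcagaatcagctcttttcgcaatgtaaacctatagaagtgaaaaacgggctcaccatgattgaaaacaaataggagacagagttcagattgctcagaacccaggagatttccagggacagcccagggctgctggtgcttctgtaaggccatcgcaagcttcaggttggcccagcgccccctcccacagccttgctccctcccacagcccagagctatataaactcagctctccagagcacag

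Ccn1, which rose, held 1 TEAD match on the opposite strand, 103 to 98 bases before the start, a motif found in 12.6% of 32851 promoter windows of this length. Spp1, which rose, held 2 SMAD matches, at 33 to 29 and 5 to 1 bases before the start, where 42.2% of windows hold at least 1. Postn, which fell, held none of the 5 marked motifs in this window, and neither did Tnc. Sparc, which fell, held 1 SMAD match, 35 to 31 bases before the start in its RefSeq entry, which lies 3103 bases from the start that GENCODE gives. YY1, the factor that the series title ties to FHL3, had no match in any of the 5 windows, against 12.4% of all windows. A match is a description of letters and not a measured binding site.

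Among the CCN genes, Ccn1 and Ccn2 rose. Ccn2, long known as connective tissue growth factor, stood at 244, 205 and 188 FPKM in WT libraries against 443, 503 and 354 FPKM in the FHL3 KO-labelled libraries. Every library labelled FHL3 KO was above every WT library, with replicate 3 so labelled the lowest of its group. The change was 1.02 (SE 0.15) on the log2(FPKM + 1) scale (limma adjusted p = 0.0023), or 2.04 times the WT mean. Ccn1, formerly Cyr61, an integrin ligand encoded by an immediate early gene, stood at 128, 123 and 119 FPKM in WT libraries against 197, 208 and 197 FPKM in the other group. Its libraries were tightly grouped, and the change was 0.70 (SE 0.074, limma adjusted p = 0.000547), or 1.63 times. The calls of both genes held in all 15 alternative fits, each read at a threshold of 0.05.

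Ccn3 showed the largest change of the 10 genes. The CCN3 protein, formerly NOV, is a growth-restraining member that can oppose CCN2. Its RNA stood at 156, 143 and 135 FPKM in WT libraries against 13.0, 12.1 and 11.9 FPKM in the FHL3 KO-labelled libraries. The change was -3.44 (SE 0.084, limma adjusted p = 1.68e-06), with rank 9 by size among 12528 genes, and the WT mean was 11.7 times the other. Ccn3 thus went from rank 445 of the tested genes by level to rank 5356.

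Ccn4 and Ccn5 were the lowest of the tested CCN genes in WT. Ccn4, formerly Wisp1, a WNT-induced gene, stood at 27.8, 24.4 and 22.6 FPKM in WT libraries against 19.2, 22.3 and 17.4 FPKM in the FHL3 KO-labelled libraries. The groups came close without overlapping. The change was -0.33 (95% interval -0.61 to -0.057) and missed the threshold (adjusted p = 0.0565, limma), although it passed in 5 of 15 alternatives, at 0.0226 without replicate 2 labelled FHL3 KO. Ccn5, formerly Wisp2, the member without the cysteine knot, stood at 1.005, 1.05 and 1.19 FPKM in WT libraries against 0.22, 0.35 and 0.16 FPKM. Its change of -0.75 (SE 0.13, limma adjusted p = 0.00381) was -1.82 with a pseudocount of 0.1, since the larger pseudocount shrinks changes at low levels. Ccn6 was at 0.070 and 0.046 FPKM in WT replicates 1 and 2, was listed at 0 in the other 4 libraries, and was not tested.

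The make-up of the family's RNA changed with these levels. Ccn3 took 28.1%, 28.8% and 29.0% of the summed FPKM of 6 CCN genes in the WT libraries and 1.94%, 1.62% and 2.06% in those labelled FHL3 KO. The share of Ccn2 went from 41.8% ± 1.7 to 64.7% ± 3.4 (SD, n = 3 each) and that of Ccn1 from 24.4% ± 1.3 to 30.4% ± 3.2. Ccn4 took 4.93% ± 0.069 and 2.95% ± 0.076, but with Ccn2 left out of the sum its share differed by only -0.065 points (exact p = 0.9). The groups were apart for Ccn1 to Ccn5, each at p = 0.1 by exact permutation (two-sided), or 0.12 after Benjamini-Hochberg adjustment over the 6 shares. Summed, the family stood at 506 ± 47 FPKM in WT libraries against 667 ± 83 FPKM in the FHL3 KO-labelled libraries (exact p = 0.1). The ratio of Ccn2 to Ccn3 within a library, chosen after the values were seen, was 1.56, 1.44 and 1.39 in WT and 34.0, 41.5 and 29.6 in the other group.

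**Figure D2:**
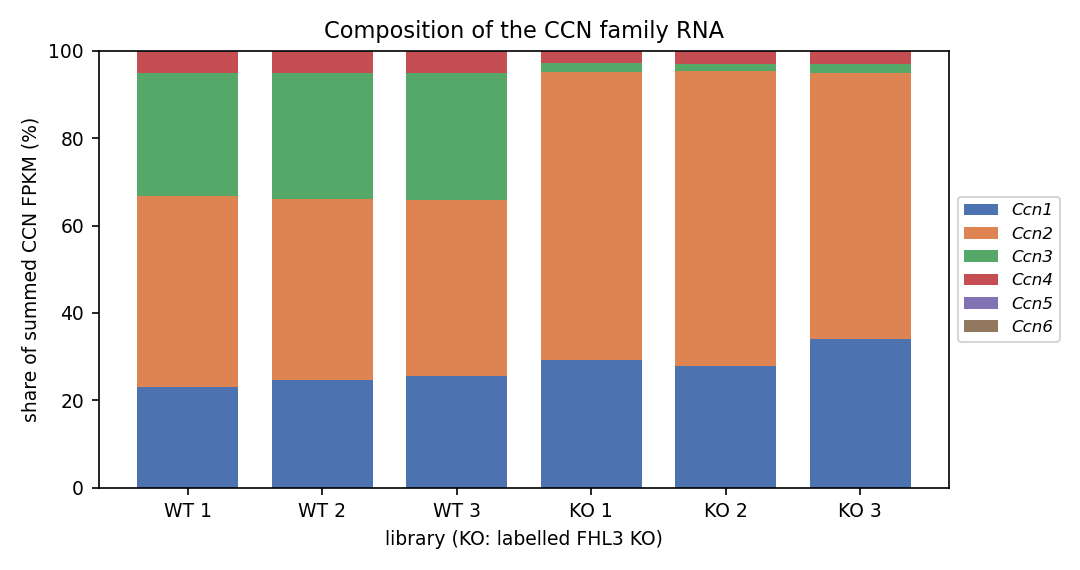
Share of each CCN gene in the summed FPKM of Ccn1 to Ccn6, in percent, with 1 stacked bar per library (KO marks the FHL3 KO-labelled libraries). Ccn3 takes 28.1% to 29.0% in WT and 1.62% to 2.06% in the other libraries, where Ccn2 takes 60.9% to 67.4%.

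Of the other matricellular genes, Spp1 rose most. Spp1 encodes osteopontin, an acidic phosphoprotein that binds integrins and CD44. It stood at 352, 304 and 300.01 FPKM in WT libraries against 960.2, 1029 and 847 FPKM in the FHL3 KO-labelled libraries. The lowest library of the second group was above every WT library by more than the spread of either. The change was 1.56 (SE 0.11, limma adjusted p = 0.000128), 2.97 times the WT mean, and Spp1 moved from rank 185 to rank 64 of the tested genes by level. Thbs1, thrombospondin-1, an activator of latent TGF-beta, stood at 139, 119 and 108 FPKM in WT libraries against 182, 213 and 160.1 FPKM. Its change of 0.60 (SE 0.13, limma adjusted p = 0.011) held in 14 of 15 alternative fits, was lost with quantile normalization (0.43, adjusted p = 0.0898) and did not pass a threshold of 0.01.

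Postn fell almost as far as Ccn3. Periostin, a fasciclin-domain protein that binds collagen and integrins, had RNA levels of 126, 105 and 93.9 FPKM in WT and of 9.97, 11.5 and 8.83 FPKM in the FHL3 KO-labelled libraries. No library came near the other group. The change was -3.30 (SE 0.13, limma adjusted p = 9.39e-06), and the WT mean was 10.7 times the other. Tgfbi, the other fasciclin-domain gene of this class, was at 0.31 FPKM or less in every library and was not tested.

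Tnc and Sparc had the smallest differences of the 10 genes. Sparc, osteonectin, a collagen-binding protein, was the most abundant of the 10 genes in WT, at 768, 823 and 861 FPKM, against 670.4, 622 and 707 FPKM in the FHL3 KO-labelled libraries. Its change of -0.29 (SE 0.10) passed narrowly (limma adjusted p = 0.0483). That call held in 7 of 15 alternatives and ended on leaving out any 1 library except WT replicate 1, with adjusted p values up to 0.155. Tnc, tenascin-C, an anti-adhesive protein of injured tissue, stood at 63.6, 56.8 and 55.1 FPKM in WT libraries against 61.9, 67.9 and 70.4 FPKM, so that the groups overlapped. Its change of 0.19 (95% interval -0.019 to 0.39, limma adjusted p = 0.128, exact p = 0.2) became 0.36 (adjusted p = 0.00876) once each library's trend with exon length was removed.

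**Figure D3:**
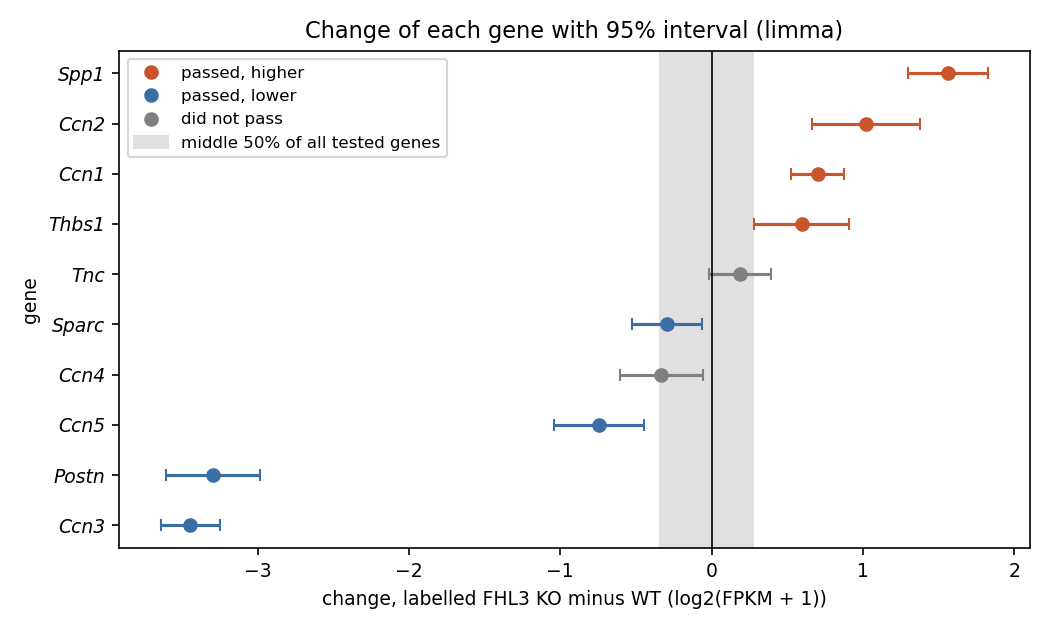
Change of each gene, as labelled FHL3 KO minus WT on the log2(FPKM + 1) scale, with its 95% interval from limma, and a grey band over the middle 50% of all tested genes. Tnc, Sparc and Ccn4 lie in or at the edge of the band, and Ccn3 and Postn lie far to its left.

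By level, the order in WT was Sparc, Spp1, Ccn2, Ccn3, Ccn1, Thbs1, Postn, Tnc, Ccn4 and Ccn5. The ranges of Ccn1, Thbs1 and Postn overlapped, as did those of Ccn3 and Thbs1. In the FHL3 KO-labelled libraries the order was Spp1, Sparc, Ccn2, Ccn1, Thbs1, Tnc, Ccn4, Ccn3, Postn and Ccn5, with only Ccn1 and Thbs1 overlapping among neighbours. Spp1 exceeded Sparc in each of these 3 libraries, by 1.43, 1.66 and 1.20 times, whereas it stood at 0.46, 0.37 and 0.35 times Sparc in WT. Together the 10 genes took 0.43% ± 0.038 of the summed FPKM in WT libraries against 0.52% ± 0.042 in the other group (exact p = 0.1). Their mean sum went from 1931 to 2540 FPKM, and Spp1 alone went from 319 to 946 FPKM. The rise of the sum was thus no larger than that of Spp1, and the other members together did not rise.

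Within each group 1 library was often the highest. WT replicate 1 was the highest WT library for 8 of the 10 genes, all but Sparc and Ccn5, and replicate 2 labelled FHL3 KO the highest of its group for 7. These are the libraries with the steepest rise with exon length in their groups. Whether that trend accounts for these counts was not tested. With the length trend removed 5 of the 10 rose and 4 fell, and without WT replicate 1 there were 4 and 4.

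Some markers of cell types and of states of myogenic cells moved beside the falls of Ccn3 and Postn, which fibroblasts also express. Of 6 fibroblast markers 1 fell, decorin (Dcn), from 152 ± 10 to 12.1 ± 1.1 FPKM (limma adjusted p = 2.02e-06), and 1, Pdgfra, was tested without passing. Thy1 and Tcf21 were listed at 0 in every library, and Dpt and Lum stood at 0.2041 FPKM or less. The list's summed level was 143 to 165 FPKM in WT libraries against 12.2 to 14.3 FPKM in the FHL3 KO-labelled libraries, nearly all of it Dcn. Of 7 myotube markers 5 rose and the others did not pass. Over all tested genes 19.7% were called higher and 21.2% lower, the background for each count in this paragraph. Of 3 markers of undifferentiated myoblasts, Myf5 went down from 29.5 ± 5.7 to 8.64 ± 0.84 FPKM (adjusted p = 0.000239, limma), Pax7 was at 0.93 and 0.99 FPKM with overlapping groups, and Pax3 was listed at 0 throughout. Of 4 cycling markers, Mki67 and Top2a fell and Ccnb1 rose (limma adjusted p = 0.00686, 0.0108 and 0.00239). The tendon marker Scx rose from 277 ± 36 to 408 ± 23 FPKM (limma adjusted p = 0.00677), while the other tendon markers, Tnmd and Mkx, did not exceed 0.212 FPKM. The adipocyte marker Pparg fell from 4.04 ± 0.78 to 2.67 ± 0.19 FPKM (limma adjusted p = 0.0323, held in 7 of 14 alternatives), and Adipoq and Plin1 were listed at 0 in all libraries. The part of these shifts in the changes above was not tested, and in bulk RNA fewer cells of a type and less RNA per cell cannot be told apart. The 4 endothelial markers summed to 1.25 FPKM or less and the 4 macrophage markers to 0.8642 FPKM or less in every library. Of 5 osteoblast markers 1 was tested and did not pass, with sums of 2.28 to 3.25 FPKM in WT and 2.92 to 4.53 FPKM in the others. Of 3 cartilage markers 1 was tested and did not pass, with sums of 19.9 to 23.3 FPKM in WT and 22.7 to 25.5 FPKM in the others.

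Most relatives of the 10 genes were too low to be tested. Thbs2, the thrombospondin without the TGF-beta activating sequence, stood at 67.0, 61.8 and 54.1 FPKM in WT libraries against 23.6, 26.7 and 24.3 FPKM, the opposite direction to Thbs1. Its change was -1.26 (SE 0.099, limma adjusted p = 0.000182), and the ratio of Thbs1 to Thbs2 went from 2.00 ± 0.077 to 7.42 ± 0.74 (exact p = 0.1). Thbs3 was at 1.64 ± 0.031 and 2.12 ± 0.22 FPKM (limma adjusted p = 0.121). Of 7 relatives of Sparc, 3 were tested. Fstl1, a follistatin-like glycoprotein, fell from 184 ± 16 to 85.8 ± 5.0 FPKM, in the direction of Sparc. Spock2 and Sparcl1 stood at 0.19 and 0.053 FPKM in WT and 1.75 and 1.15 FPKM in the others, and passed the filter only through the group where they were high, as did Dmp1. Of 4 genes that flank Spp1 in the cluster of acidic bone matrix genes, Ibsp, Mepe and Dspp were listed at 0 in all libraries, and Dmp1 stood at 0.32, 0.27 and 0.39 FPKM in WT libraries against 1.20, 1.14 and 2.92 FPKM in the others. The tenascins Tnr, Tnxb and Tnn did not exceed 0.02 FPKM.

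Of 16 tested receptors 3 were higher and 5 lower, a share near the 40.8% of all genes called. With the length trend removed 5 were higher. The proteoglycan co-receptor Sdc4, syndecan-4, rose from 20.9, 26.1 and 24.5 FPKM to 53.5, 50.8 and 52.5 FPKM (limma adjusted p = 0.000241). Cd47, the receptor for the carboxyl end of thrombospondin-1, rose from 16.8 ± 0.40 to 22.8 ± 0.20 FPKM (limma adjusted p = 0.00387). The integrin chain Itgb8, counted among the falls, stood at 2.11 ± 0.64 and 0.57 ± 0.023 FPKM and passed the filter only through the WT group, where it was high. Cd44, a receptor of osteopontin named here after its values were seen, stood at 339, 287 and 246 FPKM in WT libraries against 170, 198 and 174 FPKM in the FHL3 KO-labelled libraries (limma adjusted p = 0.00602). The integrin chains Itgav, Itgb1, Itgb3 and Itgb5, which many of these ligands share and which are named after their values were seen, did not pass, and for Itgb1, the most abundant, the 95% interval of the change ran from -0.31 to 0.23. Without WT replicate 2, or without replicate 1 labelled FHL3 KO, 3 receptors were lower.

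Ccn1 and Ccn2 are textbook targets of YAP and TEAD, whose activity was not tested. Of 13 other targets tested, 3 rose and 3 fell, near the 19.7% and 21.2% of all genes. Ajuba (15.4 ± 1.6 to 24.0 ± 1.1 FPKM) and Amotl2 (29.2 ± 1.8 to 37.2 ± 1.6 FPKM) rose, with limma adjusted p values of 0.00269 and 0.013. Dlc1, also counted as a rise, stood at 0.84 ± 0.18 and 2.31 ± 0.36 FPKM and passed the filter only through the group where it was high. Ankrd1, the most abundant target and named for that, stood at 566 ± 29 and 455 ± 50 FPKM and missed the threshold (adjusted p = 0.0504, limma), although its groups did not overlap and it was called lower in 8 of 15 alternatives. Tgfb2, among the falls, is also counted with TGF-beta signalling. With every library scaled to the same sum 5 fell, and without a filter 1. The number of falls was 0 without WT replicate 2 or without replicate 1 labelled FHL3 KO, 1 without WT replicate 1 and 5 without replicate 2 labelled FHL3 KO.

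Of 11 tested immediate early genes, many of them SRF targets like Ccn1, 7 rose and the other 4 did not pass, against 19.7% of all genes called higher. Egr2 and Fosb, among the 7, passed the filter only through the group where they were high, and without them 5 of 9 rose. Jun was called lower with quantile normalization or with the length trend removed. Egr1, a zinc-finger factor, stood at 21.7, 17.9 and 16.5 FPKM in WT libraries against 75.1, 83.2 and 71.6 FPKM in the FHL3 KO-labelled libraries. Ier2 went from 19.3 ± 2.1 to 64.8 ± 4.8 FPKM, with limma adjusted p values of 5.2e-05 for Egr1 and 6.33e-05 for Ier2. Egr2, a relative of Egr1, stood at 0.63 ± 0.083 and 6.98 ± 0.50 FPKM. Srf itself, outside the naming rule, was at 27.5 ± 0.35 and 32.4 ± 3.2 FPKM (limma adjusted p = 0.0773).

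Genes of TGF-beta signalling, which induces Ccn2, Postn and Thbs1 in many cells, moved both ways. Of 10 tested, 5 rose and 3 fell, against 19.7% and 21.2% of all genes. The ligand Tgfb1 stood at 20.3, 20.9 and 23.2 FPKM in WT libraries against 50.8, 50.4 and 47.7 FPKM in the FHL3 KO-labelled libraries, and Tgfb3 went from 38.5 ± 2.3 to 68.1 ± 2.9 FPKM. Both passed in limma (adjusted p = 0.000101 and 0.000383), as did the feedback inhibitor Pmepa1 (0.000345). The ones that fell were the receptor chains Tgfbr1 and Tgfbr2 and the ligand Tgfb2 (9.70 ± 0.76 to 7.48 ± 0.83 FPKM, limma adjusted p = 0.0411), singled out after their values were seen. The call of Tgfb2 held in 7 of 15 alternatives, with adjusted p up to 0.123. The receptor chains were at 6.09 ± 0.97 and 34.8 ± 2.2 FPKM in WT libraries against 2.81 ± 0.34 and 18.2 ± 1.9 FPKM in the other group (limma adjusted p = 0.00235 and 0.000605).

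Of 10 matrix proteins and enzymes that these genes' products bind or act with, 2 rose and 3 fell, a share near the 40.8% of all genes called. Col6a1 rose from 1.16 ± 0.21 to 8.18 ± 2.7 FPKM and Col1a1 from 4.16 ± 0.059 to 8.67 ± 1.1 FPKM, whereas Col3a1 fell from 202 ± 7.2 to 123 ± 9.9 FPKM (limma adjusted p = 0.000423, 0.00108 and 0.00094). Fibronectin, Fn1, the most abundant and named for that, stood at 1536, 1156 and 1172 FPKM in WT libraries against 984, 1187 and 928 FPKM in the others, and missed the threshold (adjusted p = 0.144, limma). Without replicate 2 labelled FHL3 KO, or with the length trend removed, 4 of the list rose. Vitronectin, Vtn, named after its values were seen, was at 2.71 FPKM in WT replicate 1, the library with liver transcripts, and at 0.2604 FPKM or less elsewhere.

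**Figure D4:**
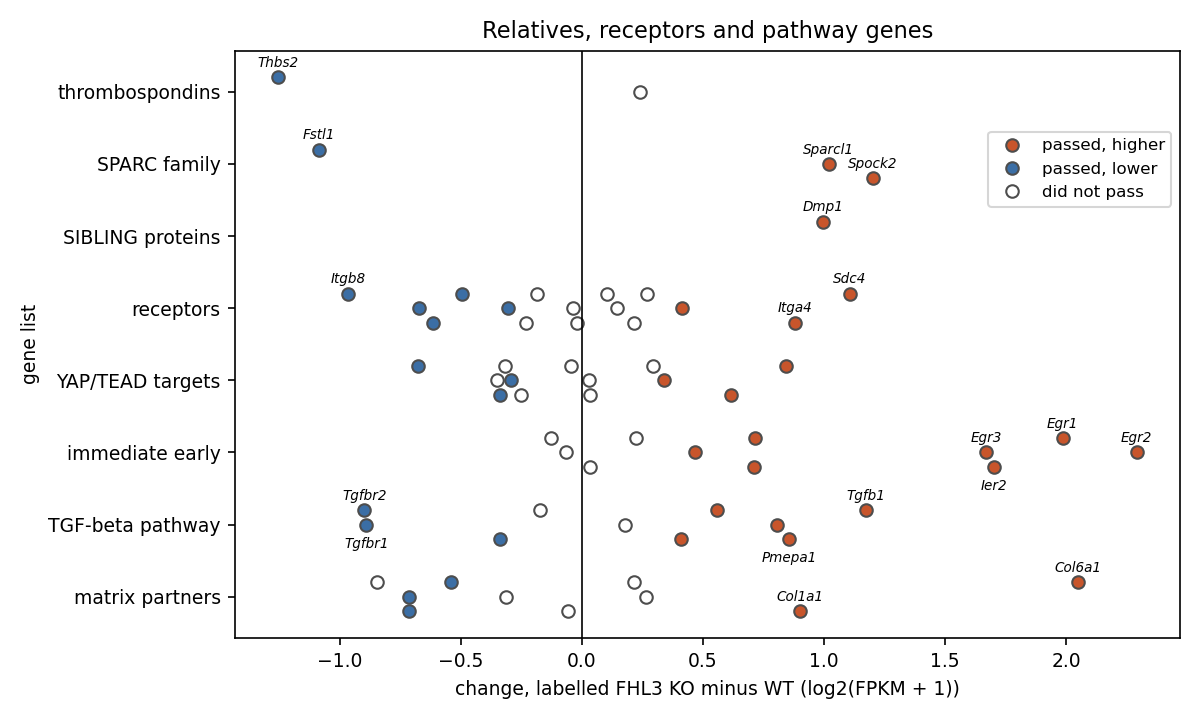
Change of each tested gene in 8 lists, as labelled FHL3 KO minus WT on the log2(FPKM + 1) scale, with 1 point per gene, filled where limma's adjusted p passed 0.05 and placed at 3 heights for legibility. Points of the immediate early list lie mostly to the right, and those of the receptors and the YAP/TEAD targets on both sides of 0.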

How the data were processed

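RNA of 6 libraries was sequenced. The submitters' processing notes list the build mm10 and, without roles, DESeq2 1.28.1, featureCounts 2.0.1, HISAT2 2.2.1 and Trim Galore 0.6.6. No annotation, strand setting or treatment of shared reads is given in the sources here.

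The deposited table names no unit, and its values are read here as FPKM, an inference tested on the file. Library sums differ (424987 to 494176), so they are not TPM. Genes shorter than 150 bases have a most frequent value in each library (0.187 in WT replicate 3). Only 14 to 43 of the 520 to 628 such genes above 0 in a library held that value. Among genes of 300 bases or more, 9.71% to 10.4% of low values were whole multiples of it (tolerance 0.05), where chance gives 10%, so the values depend on length and are not CPM. Absolute depth is unknown. If the recurring value is 1 fragment, relative depths ran from 0.862 to 1.

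Of 55420 rows, 7 sharing 3 repeated gene IDs (Junb among them) were left out. GENCODE M21 (GRCm38), matched to 94.0% of IDs, gave coordinates and exon lengths. Genes with a group mean of at least 1 FPKM were fitted as log2(FPKM + 1) in R 4.3.3 by limma 3.58.1 (two-sided moderated test with a mean-variance trend and no covariates), with Benjamini-Hochberg adjustment over all 12528 and a threshold of 0.05. Fold changes on this scale understate changes at low levels. Single values were compared by exact permutation.

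Members and lists were chosen with earlier results of these data known. Named genes were the 10, Fhl3, Yy1, the 3 called genes of smallest p in each list, and for each member the 2 nearest in pattern. Other names, the ratios and the neighbours were chosen after values were seen. Of 6 promoter motifs searched, 1 (EGR) was dropped after its matches were seen. Simulated data for these 12528 genes had noise drawn independently for each gene, with 67 genes changed 1.5-fold, 67 changed 2-fold and 66 changed 4-fold. Of these limma recovered 41.8%, 76.1% and 93.9%, with 8 false calls among 149. In the real data 40.8% of genes were called and libraries had trends with exon length, so these rates may not carry over. Alternatives were a pseudocount of 0.1, no filter, a filter at 5 FPKM, quantile normalization, scaling by median of ratios or to the same sum, removal of the length trend, a block for replicate number, each library left out in turn and a threshold of 0.01. Removal of the trend with length and GC content (fitted by splines, 5 degrees of freedom each) was chosen after seeing the data.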

Additional observations from a re-analysis of the deposited data

How the results depend on the processing

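No called difference of the 10 genes changed direction under any alternative run. Over all genes, 2462 were called higher and 2650 lower, and 1337 and 1358 at a threshold of 0.01. With 1 library left out these counts ran from 1611 to 2432 and from 1665 to 2857, lowest without WT replicate 2, and without replicate 1 labelled FHL3 KO 1752 were lower. With each library scaled to the same sum 36.3% of calls were rises, against 48.2%. Of the 10 genes, 3 to 5 rose and 3 to 5 fell over all alternatives. Deviations of same-numbered libraries from their group means correlated at -0.127, -0.063 and 0.316, and WT replicate 1 correlated best with replicate 2 labelled FHL3 KO (0.368). Deviations within a group depend on each other, so these values cannot show whether same-numbered libraries were prepared together. With the replicate block 2265 genes were called higher and 2494 lower, and of the 10, 4 and 3, Sparc being lost (adjusted p = 0.0873). Without Ccn2 in the CCN sum the denominator is smaller, and the differences in share were 44.2 points for Ccn1, -43.9 for Ccn3 and -0.27 for Ccn5. That of Ccn4 shrank from -1.98 to -0.065 points (exact p = 0.9). Ccn5 was not tested with a filter at 5 FPKM, and no test of counts was run, since the table holds none. Absolute depth is unknown, so no counting error can be given for low genes such as Ccn5.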

Other observations

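Of the 20 nearest tested protein-coding neighbours of the 10 genes, 1 on each side, 2 were higher and 5 lower (limma), a share near the 40.8% of all genes called. Of these, 2 were called in the same direction as a called member beside them and 4 in the opposite one. The first was Dmp1 beside Spp1, which passed the filter only through the group where it was high. The other was Colec10, a collectin, 279 kb before Ccn3 on chromosome 15, which went down from 11.4 ± 1.5 to 2.21 ± 0.28 FPKM (adjusted p = 9.15e-05, limma). Taf2 on the other side stood at 15.0 and 16.1 FPKM (limma adjusted p = 0.67). Ndrg1, 6.12 kb after Ccn4, was at 37.4 ± 3.4 and 30.9 ± 3.7 FPKM (limma adjusted p = 0.0895). Beside Ccn5, Pkig, an inhibitor of protein kinase A, went the other way, from 220 ± 7.6 to 443 ± 13 FPKM (limma adjusted p = 0.000168). These neighbours were examined after the members' values were seen.

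Genes with the pattern most like a member, by the root mean square difference of centred log2 values over 6 libraries among 9026 genes at 5 FPKM or more in a group, are given as a description, since the groups' difference dominates the measure. The nearest to Ccn3 were the actin-binding Xirp2 (0.069) and Dcn (0.11). Xirp2 (0.087) and the ubiquitin ligase adaptor Klhl13 (0.089) were nearest to Postn. Mean Xirp2 RNA fell from 10.8 FPKM (WT) to 0.141 FPKM (labelled FHL3 KO), so it reached 5 FPKM through the WT group alone. The log2(FPKM + 1) scale understates a change to so low a level. As a ratio of group means Xirp2 fell further than Ccn3 or Postn. The nearest to Spp1 was Ank (0.046), a transporter that exports pyrophosphate, with group means of 33.4 FPKM (WT) and 102 FPKM (labelled FHL3 KO), followed by Sema4d (0.051). Those nearest to Ccn2 were Abhd17c (0.061) and Hmga2 (0.083), and those nearest to Ccn1 were Dlgap4 (0.019) and Dcaf15 (0.024). Yy1 was at 14.3 ± 1.1 and 14.8 ± 1.4 FPKM (limma adjusted p = 0.74).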
